A study of Mus musculus with 132 samples.

Results

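Gene expression at the 32-cell stage was compared with that at the 8-cell stage within mouse embryos cultured with a mimic of miR-381-3p, using 63 of the 132 single cells of the study: 24 from the 8-cell stage and 39 from the 32-cell stage. The cells were taken by their labels for treatment and stage, and no measured value entered the choice. All embryos came from matings of C57BL/6 x DBA F1 females with males of the same cross. They were flushed at the 2-cell stage (embryonic day 1.5) and kept in KSOM medium with a synthetic miR-381-3p mimic, added at 5 or 10 µM, until embryonic day 2.5, when they had 8 cells, or embryonic day 3.5, when they had 32. A second set of 69 cells, 30 from the 8-cell and 39 from the 32-cell stage, came from embryos given a scrambled negative control mimic at the same concentration and is set beside the treated cells at the end. Each group was pooled from 3 to 5 embryos. The labels name the stage and treatment of a cell but not its embryo or its dose, and the text of the study names the 10 µM concentration with the 8-cell and the 5 µM concentration with the 32-cell embryos, so stage, dose and day of collection cannot be told apart in these cells.

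In the mouse, development up to the 2-cell stage runs on RNA that the egg has stored, which is cleared as the embryo's own genome is switched on. At the 8-cell stage the cells flatten against each other and become polarised. Outer cells then enter the trophectoderm (TE), the transporting epithelium that pumps fluid into the blastocyst cavity and later forms placenta, while inner cells form the inner cell mass (ICM), which gives the epiblast and the primitive endoderm. Polarity sets the Hippo pathway, through which the kinases Lats1 and Lats2 keep the co-activators Yap1 and Wwtr1 away from the TEAD factors in inner cells, and TEAD activity in outer cells turns on Cdx2 and Gata3. A microRNA such as miR-381-3p pairs through its seed, bases 2 to 8, with short sites that lie mostly in the 3' untranslated regions of messenger RNAs and lowers their translation or stability.

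The mature sequence that the mimic copies is shown because its seed defines the sites counted further on. The seed is in capitals, and the sequence is that of RefSeq at chr12:109726870-109726891 on the plus strand of GRCm38.p6.

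mmu-miR-381-3p: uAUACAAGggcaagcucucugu

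Total counts per cell were similar at the 2 stages, 642262 to 2066661 at the 8-cell stage and 799774 to 2543841 at the 32-cell stage, with medians of 1280604 and 1212134. The groups were checked against genes that mark each stage. The 6 markers of the early stages (Obox3, Obox6, Zscan4d, Btg4, Gdf9 and Zp3) summed to 1720 CPM (counts scaled to a total of 1000000, without mitochondrial genes) in the pooled 8-cell cells and 46.6 CPM in the pooled 32-cell cells, and nearly all of this was Obox6. The 6 markers of the later stage (Dppa1, Krt8, Krt18, Cdx2, Lgals1 and Atp1b1) summed to 209 and 3221 CPM. Of 13 markers of follicle, oviduct, stromal and blood cells, 11 were at 0 in the 8-cell and 8 in the 32-cell cells, and the highest was Ovgp1 at 16.5 and 1.31 CPM.

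Some 8-cell libraries stood apart by the number of genes they held, 3 in all. They had counts in 3243, 4614 and 4881 genes, against 5963 to 7492 in the other 21, with totals of 1041987 to 1764775 counts and no count of Xist or of the Y-linked genes Ddx3y and Eif2s3y. Sex also differed between the groups by these genes: Xist had counts in 15 of the 24 8-cell cells and in all 39 32-cell cells, whereas counts of the Y-linked pair exceeded those of Xist in 7 8-cell cells and in 0 32-cell cells. The 32-cell cells fall into 3 runs of consecutive title numbers, with 18, 12 and 9 cells in order, whose meaning the labels do not give.

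Of the genes counted, 7594 reached 20 CPM in the pooled cells of either stage, and for these a log2 change was taken between the pooled levels, log2(CPM + 1) at the 32-cell stage minus the 8-cell stage, so that the change of low genes is understated. CPM are shares of a cell's counts and are not divided by gene length, so a level is compared between stages within a gene, and a change in the total RNA of a cell cannot be seen. No test was possible, because cells that may share an embryo are not replicates and each stage is 1 pooled sample. The words rose and fell are therefore used for a difference of 4-fold or more (2 on the log2 scale), and intervals are exact Poisson 95% intervals that cover counting error only. By this measure 1043 genes (13.7%) rose and 515 (6.78%) fell, and the median absolute change was 0.95. Cells were also compared one by one. In 17 genes (0.224%) every 32-cell cell was above every 8-cell cell, and in 19 (0.25%) every 32-cell cell was below every 8-cell cell. A gene that reached 20 CPM at 1 stage only had to differ, so in the lists below the counts and medians of genes that passed are descriptions and support no statement about a list, and they are read beside the 13.7% and 6.78% of all genes. This holds for rises as for falls, since Dsg2, Dsc2, Pycr1, Herpud1, Slc7a1, Slc1a4, Mvk, Gpx3 and Lgals1 below passed through the 32-cell stage alone. Without the 3 cells with few genes 1008 genes rose and 498 fell, and 21 and 26 were without overlap.

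**Figure D1:**
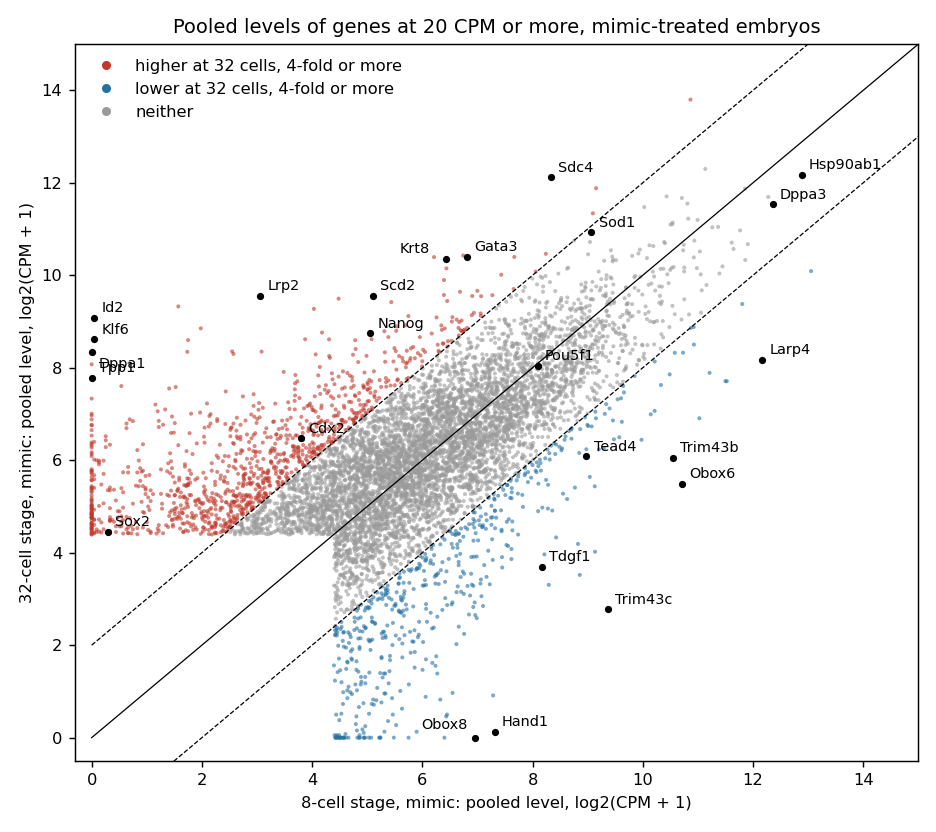
Pooled level of each gene at 20 CPM or more in either stage, on the log2(CPM + 1) scale, at the 8-cell (horizontal axis) and the 32-cell stage (vertical axis) of mimic-treated embryos. Each point is a gene, the solid line marks equal levels and the dashed lines a 4-fold difference: 1043 genes lie above the upper and 515 below the lower one, with Id2, Klf6, Dppa1 and Tpp1 at the left edge and Obox8 and Hand1 at the bottom.

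Obox6 and Obox8, homeobox genes of the early embryo, fell. Obox6, a homeobox gene active from the egg to the 8-cell stage (chr7:15833241-15839678, minus strand, mm10), had 548 to 3124 CPM per cell (median 1657) over the 24 8-cell cells and 0 to 273 (median 14.9) over the 39 32-cell cells. No 32-cell cell reached the lowest 8-cell cell, although 22 of 39 still had counts. Its pooled level was 1671 CPM (95% interval 1656 to 1685) at the 8-cell and 44.1 CPM (42.3 to 45.9) at the 32-cell stage, a change of -5.21. Obox8, of the same family, was counted in 22 of 24 8-cell cells at 123 CPM and in none of the 39 32-cell cells, and was thus at least 2186-fold lower (against the level that 3 counts over the group give). The related gene Crxos was at 1301 and 861 CPM and did not fall. These were the only 3 of the 8 Obox-family genes counted at 20 CPM or more, and members of this family, like the Trim43 and Tdpoz families below, share sequence, so that reads may have been divided among copies.

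The paralogues Trim43b and Trim43c, tripartite-motif genes of the preimplantation embryo, fell without overlap of the cells. Trim43c had 207 to 1594 CPM per cell (median 587) over the 24 8-cell cells and 0 to 25.8 (median 4.41) over the 39 32-cell cells, and its pooled level was 661 and 5.86 CPM (change -6.59). Trim43b had 893 to 2503 CPM per cell (median 1426) over the 24 8-cell cells and 5.16 to 285 (median 57.0) over the 39 32-cell cells (change -4.49). AC168977.1, a locus without a gene name, fell from 452 to 17.2 CPM, also without overlap.

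Of 26 genes known from the burst of transcription at the 2-cell stage, 3 passed the limit of 20 CPM. They did so through the 8-cell stage alone, so their falls were largely set by that limit and are given as values. Sp110, which codes for a nuclear body protein, went from 138 CPM with counts in all 24 cells to 12.3 CPM, and Tdpoz4, of a multicopy family of POZ-domain proteins, from 20.7 CPM to 0. The third, Eif4e3, a cap-binding protein gene, owed 77.3% of its 8-cell counts to the 3 cells with few genes, and without them it was at 7.21 CPM and no longer reached 20 CPM. Genes of the subcortical maternal complex, a protein assembly that the egg lays down under its membrane, did not all go one way, and those that fell, like Npm2 and Omt2b below, also passed through the 8-cell stage alone. Among 4 of 12 that passed, Tle6, Zbed3 and Padi6 fell (Padi6 from 49.7 to 5.22 CPM, and Tle6 from 24.3 to 1.15 CPM, which is under 20 CPM at both stages without the 3 cells), while Khdc3 rose from 45.1 CPM (95% interval 42.7 to 47.5) to 444 CPM (438 to 449), with 0 to 298 CPM per cell (median 27.3) over the 24 8-cell cells and 5.59 to 1209 (median 298) over the 39 32-cell cells. The cells of the 2 stages overlapped for Khdc3. The falls were 75% and the rise 25% of the 4 that passed, beside 6.78% and 13.7% of all genes. Of 4 of 24 oocyte transcripts that passed, 2 fell (50%, beside 6.78% of all genes). Npm2, a histone chaperone of the egg, fell from 21.5 CPM to 2 counts in all (a ratio of 572, 95% interval 157.7 to 4732), and Omt2b, of oocyte maturation, from 20.4 CPM (19.2 CPM without the 3 cells) to 0. Dppa3, the maternal factor that protects methylation in the zygote, was at 5229.9 and 2977 CPM, and the deadenylase gene Cnot7 was at 201 and 164.8 CPM.

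The largest falls outside these lists were mixed in kind. Hand1, a helix-loop-helix factor of later trophoblast, was counted in 22 of 24 8-cell cells at up to 413 CPM and in 2 of 39 32-cell cells at no more than 2.88 CPM. Its pooled level fell from 158.03 CPM (95% interval 153.6 to 162.5) to 0.0939 CPM (0.0305 to 0.219). Socs3, the feedback inhibitor of JAK-STAT signalling, had counts in 16 8-cell cells and in no 32-cell cell, at least 1481-fold lower. The remaining large falls were Exoc3l2, a relative of the exocyst subunits (154.8 to 0.883 CPM), the clock gene Nr1d2 (85.4 to 0.376 CPM), Glcci1 (86.3 to 0.413 CPM), the zinc finger factor Sp6 (58.6 to 0.0939 CPM), Oog3 of the oogenesin family (52.8 CPM to 0) and the cytokine gene Tnfsf13b (92.6 to 0.958 CPM). In each of these the 8-cell cells were themselves uneven, with at least 1 cell at 0.

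Further genes fell without overlap of the cells. Larp4, which binds poly(A) tails and keeps messages stable, had 1649 to 6262 CPM per cell (median 4714) over the 24 8-cell cells and 40.1 to 749.7 (median 295) over the 39 32-cell cells, and its pooled level fell from 4609 CPM (95% interval 4585 to 4633) to 287 CPM (282 to 292). Gcsh, the H protein of the glycine cleavage system, fell from 2941 to 208 CPM, and Pdxk, the kinase that makes active vitamin B6, from 2893 to 208 CPM. Impdh2, the rate-limiting enzyme of guanine nucleotide synthesis, had 1814 to 3333 CPM per cell (median 2397) over the 24 8-cell cells and 56.1 to 566 (median 235) over the 39 32-cell cells. Its lowest 8-cell cell was above the highest 32-cell cell by 1.68 on the log2 scale. Cdk2ap1, an inhibitor of Cdk2, went from 136 to 6.2 CPM, and Cited1, a co-activator without DNA binding of its own, from 394 to 34.8 CPM. The 6 genes of this paragraph changed by -4.25 to -3.32.

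**Figure D2:**
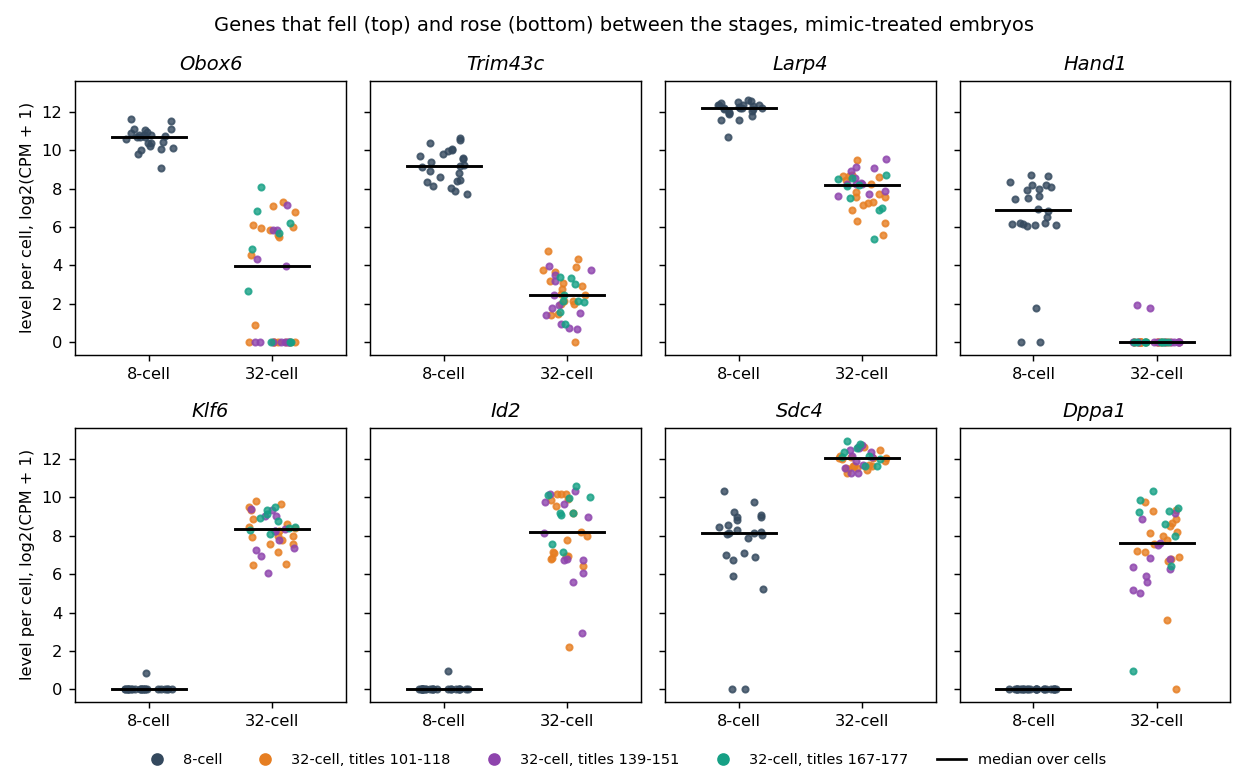
Level per cell, log2(CPM + 1), of 4 genes that fell (Obox6, Trim43c, Larp4, Hand1) and 4 that rose (Klf6, Id2, Sdc4, Dppa1). Each point is a cell, 24 at the 8-cell and 39 at the 32-cell stage, coloured at the 32-cell stage by run of title numbers, and bars are medians over cells: the stages do not overlap for Obox6, Trim43c, Larp4, Klf6, Id2 and Sdc4.

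Among the rises, Id2 and Klf6 went from near absence to every cell. Id2, an inhibitor of helix-loop-helix factors that marks outer cells (chr12:25093799-25097140, minus strand, mm10), had 1 count over all 24 8-cell cells, in a single cell at 0.951 CPM, and 3.68 to 1541 CPM per cell (median 292) at the 32-cell stage. Its pooled level was 540.2 CPM (534 to 546), a ratio of 16697 with an interval of 2997 to 659520. Klf6, a zinc finger factor (chr13:5861482-5870394, plus strand, mm10), likewise had 1 count at the 8-cell stage and 64.9 to 887 CPM per cell (median 330.2) at the 32-cell stage, a ratio of 12093 (2170.1 to 477654). The ratios rest on a single 8-cell count each, so their size is loosely set while their direction is shared by all 39 cells.

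Genes without any 8-cell count followed. Dppa1, a marker of later blastomeres, was counted in 38 of 39 32-cell cells (median 196, highest 1283 CPM) and was at least 3338-fold higher, pooled at 324 CPM (319 to 329). Tpp1, a lysosomal peptidase, was counted in all 39 cells at 17.9 to 595 CPM, at least 2253-fold higher. Lcp1, an actin-bundling plastin, was counted in 30 cells (at least 2763-fold), the glucose transporter gene Slc2a1 in 37 (at least 1649.8-fold), Nlrp4c in 31 (at least 1313-fold) and the cytosolic malate dehydrogenase gene Mdh1 in 37 (at least 1280.1-fold). Only Tpp1 among them separated all cells of the 2 stages, since each of the others had 32-cell cells at 0.

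Further rises came from genes that were low at the 8-cell stage. Akr1b8, an aldo-keto reductase, went from 1.97 CPM in 2 cells to 640.2 CPM in all 39, and Glrx, a glutaredoxin, from 0.453 to 193 CPM. Ogdhl, a relative of the oxoglutarate dehydrogenase, had 0 to 2.3 CPM per cell (median 0) over the 24 8-cell cells and 29.1 to 282 (median 82.8) over the 39 32-cell cells, and Snhg11, a snoRNA host transcript, went from 2.94 to 461 CPM. None of these 4 had a 32-cell cell within the 8-cell range. Sdc4, a heparan sulfate proteoglycan of the cell surface, had 0 to 1292 CPM per cell (median 281) over the 24 8-cell cells and 2470.8 to 7963 (median 4173) over the 39 32-cell cells and pooled levels of 321 CPM (95% interval 315 to 328) and 4459 CPM (4441 to 4477). Smaller but equally even shifts were seen in Sod1, the cytosolic superoxide dismutase (95.9 to 898 CPM per cell (median 581) over the 24 8-cell cells and 1228 to 2688 (median 1981) over the 39 32-cell cells), Ywhaz, a 14-3-3 adaptor (pooled 201 and 832 CPM), and Calm2, a calmodulin gene (430.2 and 1718 CPM). Their changes were 1.86, 2.05 and 1.995, so that of the 3 only Ywhaz passed 4-fold and Calm2 lay just under it (2.03 without the 3 cells with few genes), although in each all 39 32-cell cells lay above all 24 8-cell cells. The other genes higher in every 32-cell cell were Rnd3, Gnb1, Actb, Sephs2, Fuca2 and Snx2, and the other genes lower in every 32-cell cell were Set, Dnajb6, Rsl24d1, Pa2g4, Tmem50b, Akap8, Cd320, Nolc1 and AC133103.1.

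The transcription factors of the trophectoderm did not move together. Of 22 such genes 15 passed, 6 rose (Id2, Grhl1, Elf3, Gata3, Eomes and Cdx2) and 4 fell (Hand1, Tead4, Sox21 and Ovol1), 40% and 26.7% against 13.7% and 6.78% of all genes, and the median change was 0.21, close to the 0.20 of all genes. Gata3, which with Cdx2 carries the TE programme, had 0 to 379 CPM per cell (median 85.7) over the 24 8-cell cells and 8.63 to 3843 (median 848) over the 39 32-cell cells, and its pooled level rose from 110.7 CPM (95% interval 107.03 to 114.5) to 1350.5 CPM (1341 to 1360.4). Cdx2, the caudal homeobox factor required for TE identity (chr5:147300805-147307270, minus strand, mm10), was counted in 8 of 24 8-cell cells and in 29 of 39 32-cell cells, with a median of 0 and 48.3 CPM, a highest cell of 103.6 and 289 CPM and a change of 2.68. In the 8-cell group 45.3% of the Cdx2 counts lay in 1 of the 3 cells with few genes, and without these cells its change was 3.29. Eomes, a T-box factor of trophoblast stem cells, rose from 3.49 CPM in 2 cells to 35.6 CPM in 27, but was at 44.0, 9.96 and 52.6 CPM in the runs of 18, 12 and 9 cells and so within 4-fold of the 8-cell level in the run of 12. Tfap2c, an AP-2 factor acting upstream of both, was already present at 199 CPM in 23 of 24 cells and was at 353 CPM in all 39 (change 0.82), and Tbx3 was at 648 and 224 CPM (change -1.53). The stages overlapped for Gata3, Cdx2, Eomes, Tfap2c and Tbx3.

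Factors of the pluripotency network were likewise split, with 4 rises (Tfcp2l1, Sox2, Nanog and Zfp42) and 3 falls (Klf17, Klf2 and Nr5a2) among 16 of 22 that passed, 25% and 18.8% beside 13.7% and 6.78% of all genes, and a median change of -0.19. With only the 8-cell cells that had Xist and no Y-linked counts, 3 rose. Tfcp2l1, a factor of the naive state, had 0 to 609.8 CPM per cell (median 13.6) over the 24 8-cell cells and 220.0 to 2576 (median 1278) over the 39 32-cell cells. Nanog, a homeobox factor of the ICM and epiblast, was counted in 17 of 24 8-cell cells (median 17.8, highest 168.2 CPM) and in all 39 32-cell cells (83.2 to 973 CPM), and rose from 32.2 CPM (95% interval 30.2 to 34.3) to 430.0 CPM (424 to 436). Of the 39, 35 exceeded every 8-cell cell. Sox2, which becomes confined to the ICM, was counted in 2 8-cell and 21 32-cell cells (median 0.573, highest 350.3 CPM). Pou5f1, the octamer factor needed by all these cells, was level at 272 and 263 CPM (change -0.05), with medians of 278 and 256 CPM, and Sall4 was at 802 and 482 CPM.

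The Dppa genes and their partners, named for expression in pluripotent cells, gave 1 rise (Dppa1) and 1 fall among 7 of 8, 14.3% each beside 13.7% and 6.78% of all genes. The fall was Tdgf1 (Cripto, a co-receptor for Nodal), which had 17.6 to 1441 CPM per cell (median 242) over the 24 8-cell cells and 0 to 100.7 (median 0) over the 39 32-cell cells and went from 288 CPM (95% interval 282 to 294) to 11.9 CPM (11.02 to 12.9), with counts in only 12 of 39 cells. Dppa5a was at 698 and 1259 CPM. Of the primitive endoderm genes 9 of 22 passed, 3 rose (Lrp2, Dab2 and Col4a1; 33.3%, beside 13.7% of all genes) and 2 fell (Gata4 and Cited1; 22.2%, beside 6.78%), with a median of 1.48. Gata6, the first factor of this lineage, was at 104.7 and 158.7 CPM (change 0.60), and Gata4 was counted in 18 8-cell cells and no 32-cell cell. Lrp2 (megalin) and its adaptor Dab2, which serve endocytosis in both extra-embryonic epithelia, rose from 7.34 to 751 CPM and from 86.4 to 694 CPM, in 38 and 38 of 39 cells.

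The 32-cell cells differed widely among themselves in lineage genes. Across these 39 cells, on the log2(CPM + 1) scale, Gata3 went with Krt8 (Pearson r = 0.66, Spearman rho = 0.75), Krt18 (r = 0.80, rho = 0.77), Cdx2 (r = 0.46, rho = 0.64) and Lrp2 (r = 0.54, rho = 0.70), and against Sox2 (r = -0.68, rho = -0.68). Gata3 went less closely with Eomes (r = 0.345, rho = 0.28). Nanog showed little relation to Gata3 (r = -0.26, rho = -0.20) or to Sox2 (r = 0.13, rho = 0.05), and more to Gata6 (r = 0.37, rho = 0.41). The tightest pair was Krt8 with Krt18 (r = 0.85, rho = 0.95). These are descriptions of 39 cells that share embryos and fall into runs of title numbers, and 12 such pairs were computed.

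Part of this spread lay between the runs of title numbers. Gata3 was pooled at 1021 CPM (1007 to 1035), 1089 CPM (1073 to 1104) and 2055 CPM (2032 to 2077) in the runs of 18, 12 and 9 cells, and Dppa1 at 306, 169.5 and 514 CPM, both highest in the run of 9 cells. Cdx2 was at 107.7, 48.5 and 104.6 CPM and so lowest in the run of 12 cells, while Spp1 was at 534, 412 and 170.01 CPM. Nanog (357, 499 and 449 CPM), Pou5f1 (261, 294 and 230.1 CPM) and Krt8 (1289.8, 1269 and 1389 CPM) varied less. In every run Gata3, Krt8, Nanog and Dppa1 were above their pooled 8-cell level by more than 4-fold.

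**Figure D3:**
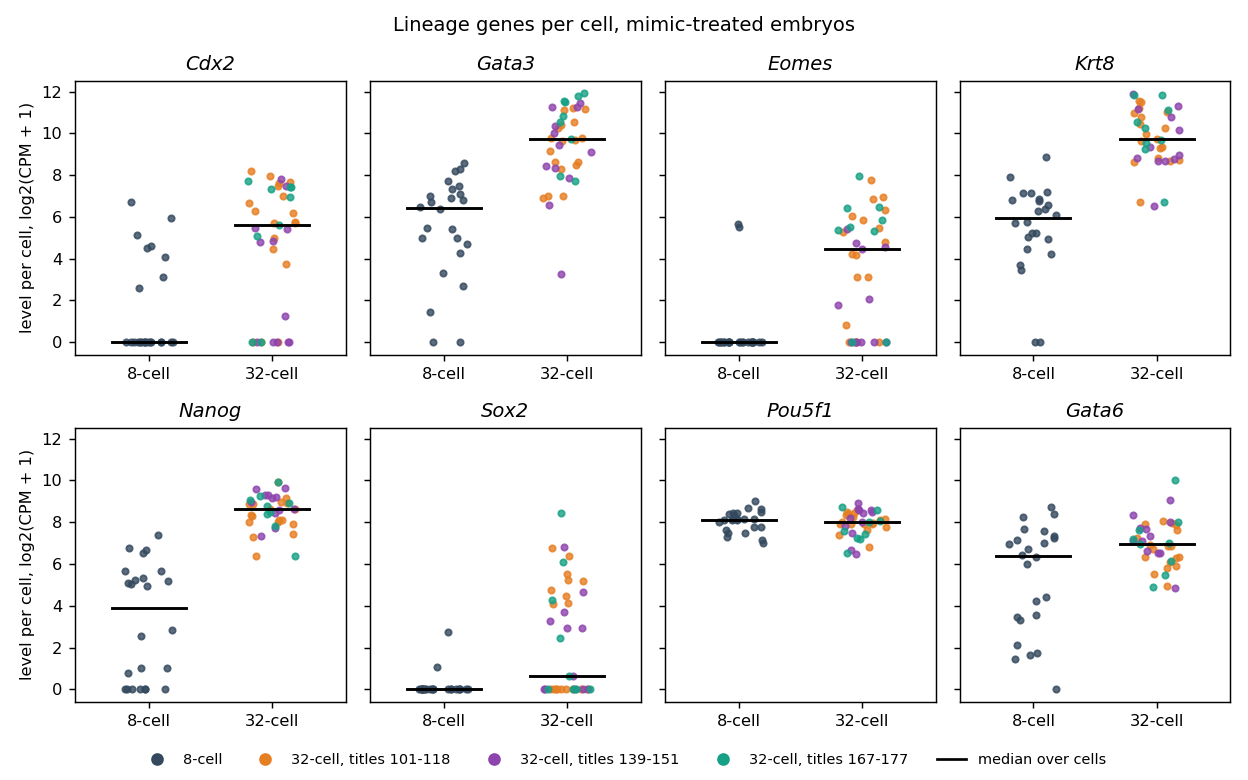
Level per cell, log2(CPM + 1), of TE genes (Cdx2, Gata3, Eomes, Krt8; top) and of Nanog, Sox2, Pou5f1 and Gata6 (bottom) at the 8-cell (24 cells) and 32-cell stage (39 cells, coloured by run of title numbers). Bars are medians over cells: Pou5f1 is level, Nanog is present in every 32-cell cell, and Cdx2, Eomes and Sox2 are at 0 in some 32-cell cells of each run.

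Keratin and desmosome genes of the epithelium are given next. Of 14 simple keratin and desmosome genes 7 passed, 6 (85.7%, beside 13.7% of all genes) rose and 0 fell, with a median change of 3.69, and the counts were the same without the 3 cells with few genes and with Xist cells only at the 8-cell stage. Krt8 and Krt18, the keratin pair of the first embryonic epithelium, rose from 85.4 CPM (95% interval 82.1 to 88.7) to 1313 CPM (1303 to 1323) and from 105.98 CPM (95% interval 102.4 to 109.7) to 1375 CPM (1365 to 1385). Krt8 had 0 to 469 CPM per cell (median 60.5) over the 24 8-cell cells and 90.1 to 3826 (median 858) over the 39 32-cell cells, so that low 32-cell cells lay within the 8-cell range. The desmosomal cadherins Dsg2 and Dsc2 had no count at the 8-cell stage and were counted in 32 and 12 of 39 cells, at least 733-fold and 280.4-fold higher. Both thus passed the limit through the 32-cell stage alone.

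Of 12 tight junction genes that passed (of 16), 2 (16.7%) rose and 0 fell, close to the share over all genes, with a median of 1.02, and 4 rose without the 3 cells with few genes. The rises were the scaffold gene Tjp3 (2.43 to 53.9 CPM) and the claudin gene Cldn12 (10.4 to 56.4 CPM, counted in 4 of 24 and 23 of 39 cells). Cldn4 was at 685 and 1487 CPM (change 1.12) and F11r, a junctional adhesion molecule, at 421 and 511 CPM. Of the genes for the sodium pump, its regulators and water channels, which fill the blastocyst cavity, 8 of 21 passed, 2 rose and 2 fell (25% each, beside 13.7% and 6.78% of all genes). The pump subunit Atp1b1 rose from 4.92 CPM in 8 cells to 81.9 CPM in 35, and the scaffold Slc9a3r1 from 1.97 to 40.8 CPM. The ion cotransporter Slc12a2 and the water channel Aqp9 fell, from 558 to 42.3 CPM and from 334 to 81.5 CPM.

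Adhesion and apical polarity genes gave 4 rises (19.05%, beside 13.7% of all genes) and 0 falls among 21 of 23, with a median of 1.08. Ezr and Msn, which tie the apical membrane to actin, rose from 9.71 to 88.1 CPM and from 4.4 to 178 CPM, each from 6 of 24 cells with a count. The catenin gene Ctnna1 (264 and 702 CPM) and the small GTPase gene Cdc42 (391.7 and 682 CPM) stayed within 4-fold. In the group of galectins, S100 proteins and annexins 3 of 10 that passed rose (30%, beside 13.7% of all genes) and 0 fell. Lgals1 was counted in 1 8-cell cell and 35 32-cell cells and rose to 39.8 CPM, and Anxa6 rose from 0.615 to 117.03 CPM. Anxa2 was at 111.7 and 337 CPM, and Anxa7 at 369 and 453 CPM. Among matrix genes 4 of 11 rose (36.4%, beside 13.7%) and 0 fell. Spp1 (osteopontin) was counted in 1 8-cell cell and 34 32-cell cells and rose from 2.36 to 386 CPM, and the laminin gene Lama5 from 14.6 to 148.6 CPM, whereas the nidogen gene Nid1 was at 223 and 65.3 CPM. Of 17 genes listed as markers of cumulus and oviduct cells 1 passed, Epcam, an adhesion molecule of many epithelia, which rose from 21.3 CPM in 9 cells to 719.8 CPM in all 39.

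Genes of the Hippo and FGF pathways were described next. Of 22 genes of the Hippo pathway and TEAD family 17 passed, 0 rose and 2 fell (11.8%, beside 6.78% of all genes), 14 had a change below 0 and the median was -0.98, beside 0.20 over all genes. Tead4, the TEAD factor on which TE formation depends, had 62.0 to 814 CPM per cell (median 483) over the 24 8-cell cells and 0 to 166.8 (median 60.3) over the 39 32-cell cells and fell from 503 CPM (95% interval 495 to 510.5) to 66.7 CPM (64.5 to 68.9). Ajuba, an adaptor that restrains the Lats kinases, fell from 44.7 to 6.25 CPM. The co-activator gene Yap1 was at 185 and 91.7 CPM (change -1.01). Tead1 was at 25.5 CPM (95% interval 23.8 to 27.4) and 13.1 CPM (12.1 to 14.1) (change -0.91), with counts in 19 of 24 and 22 of 39 cells and a highest cell of 199 and 72.2 CPM. Of 18 genes of FGF signalling, the pathway that divides epiblast from primitive endoderm, 13 passed, 1 rose and 4 fell (30.8%, beside the same 6.78%, with Fgfr3 and Fgf3 passing through the 8-cell stage alone), and 5 had a change above 0. The receptor gene Fgfr3 fell from 48.5 to 0.545 CPM and the ligand gene Fgf3 from 35.3 to 1.11 CPM, each counted in 14 of 24 and 2 of 39 cells. The feedback inhibitor gene Spry2 was at 547 and 711 CPM, and the adaptor Frs2 was at 86.6 and 125 CPM.

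Cholesterol and fatty acid synthesis had the highest median change of the lists with 20 or more genes that passed. Of 35 genes for cholesterol and fatty acid synthesis 30 passed, 17 (56.7%, beside 13.7% of all genes) rose and 0 fell, and 29 of 30 changes were above 0, with a median of 2.21. Summed within each cell, the 35 genes gave 1116 to 2854 CPM (median 1704) at the 8-cell and 3863 to 11271 CPM (median 6261) at the 32-cell stage. Every 32-cell cell was thus above every 8-cell cell in this sum. The number that rose was 16 of 30 without the 3 cells with few genes and 13 of 30 when only the 11 8-cell cells with Xist and no Y-linked counts were used. The desaturase gene Scd2 rose from 33.3 CPM (95% interval 31.3 to 35.4) to 752 CPM (745 to 759) and had 0 to 258 CPM per cell (median 0.409) over the 24 8-cell cells and 71.1 to 1601 (median 742) over the 39 32-cell cells. Mvk, the mevalonate kinase, was counted in 1 of 24 and 27 of 39 cells and rose from 0.582 to 52.2 CPM, while Acly, which supplies cytosolic acetyl-CoA, was at 208 and 760.4 CPM (change 1.87). Srebf2, the master factor of sterol synthesis, named here after its values were seen, went from 14.9 to 141.1 CPM.

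Genes of energy metabolism form the next lists. In glycolysis and pyruvate use 8 of 19 that passed rose (42.1%, beside 13.7% of all genes) and 1 (Hk1) fell (5.26%, beside 6.78%), with a median of 1.56. The glucose transporter gene Slc2a3 rose from 85.6 CPM (95% interval 82.4 to 88.9) to 1133 CPM (1124 to 1142), counted in 17 of 24 and 38 of 39 cells. Gapdh rose from 5.27 to 87.8 CPM, and reads of this gene may also have been given to its many processed copies in the genome, and Aldoa was at 291 and 864 CPM. In the TCA cycle 6 of 20 rose (30%, beside 13.7%), 0 fell and the median was 1.45. Idh3a rose from 38.9 to 321 CPM, Idh1 from 132 to 577 CPM (change 2.12, and 1.99 without the 3 cells with few genes), and Mdh2 was at 645 and 967 CPM. The nuclear genes of oxidative phosphorylation shifted by less but evenly: 77 of 80 that passed had a change above 0, the median was 0.68, 3 rose (Cox7b from 13.2 to 95.3 CPM, Ndufaf3 from 4.43 to 33.2 CPM), which is 3.75% and below the 13.7% of all genes, and 0 fell. Atp5b and Uqcrc1 were at 1167 and 1585 CPM and at 703 and 1290.3 CPM.

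Of 31 redox defence genes 28 passed, 8 rose (28.6%, beside 13.7% of all genes) and 0 fell (median 1.26). Besides Glrx, the extracellular peroxidase gene Gpx3 rose from 0.259 CPM in 2 cells to 79.8 CPM in 28 (highest cell 653 CPM), and its level in the run of 12 cells was 173 CPM against 33.7 and 37.5 CPM in the others. Prdx6 was at 291 and 798 CPM (change 1.45). Amino acid transporter genes gave 5 rises (38.5%, beside 13.7%) and 0 falls among 13 of 22, and the cationic carrier Slc7a1 and the neutral carrier Slc1a4 had no 8-cell count and reached 53.7 and 46.4 CPM, at least 553-fold and 478-fold higher. Slc3a2 and Slc1a1 were at 496 and 629 CPM and at 341 and 456 CPM. Among chaperones 2 of 25 (8.0000%, below the 13.7% of all genes) rose, Hsp90b1 from 45.5 to 474 CPM and Pdia6 from 39.1 to 279 CPM. The cytosolic Hsp90 genes went opposite ways within the limit, Hsp90ab1 at 7537 and 4631 CPM and Hsp90aa1 at 2244 and 5037 CPM.

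Genes of the ATF4 response, which cells use when amino acids run short or proteins misfold, rose in 10 of 15 that passed (of 20; 66.7%, beside 13.7% of all genes), with 0 falls and a median of 2.64. Pycr1, of proline synthesis, had 3 counts at the 8-cell stage and was counted in 31 of 39 32-cell cells at 59.1 CPM pooled, a ratio of 609 (208 to 2956). Herpud1, of the degradation pathway at the endoplasmic reticulum, went from 2 counts to 62.9 CPM, a ratio of 972 (269 to 8033). The tRNA synthetase gene Nars rose from 301 CPM (95% interval 295 to 307) to 1409.9 CPM (1399.8 to 1420.0) with 71.9 to 610.4 CPM per cell (median 291) over the 24 8-cell cells and 252 to 2574 (median 1420.1) over the 39 32-cell cells, while Psat1, of serine synthesis, was at 641 and 745 CPM. The summed level of the list per cell was 1027 to 2369 CPM at the 8-cell and 2115 to 6971 CPM at the 32-cell stage, so that the ranges overlapped only between 2115 and 2369 CPM. The count of 10 of 15 was the same without the 3 cells with few genes and with Xist cells only at the 8-cell stage. Of p53 and its targets 3 of 19 rose and 0 fell (15.8%, near the share over all genes), with a median of 0.92. The rises were Pmaip1 (Noxa, 11.9 to 184 CPM), the antiproliferative gene Btg2 (25.8 to 309.9 CPM) and the cyclin gene Ccng1 (82.9 to 760.0 CPM, 0 to 421 CPM per cell (median 44.2) over the 24 8-cell cells and 97.7 to 1545 (median 822) over the 39 32-cell cells). Trp53inp1 was at 134 and 425 CPM.

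**Figure D4:**
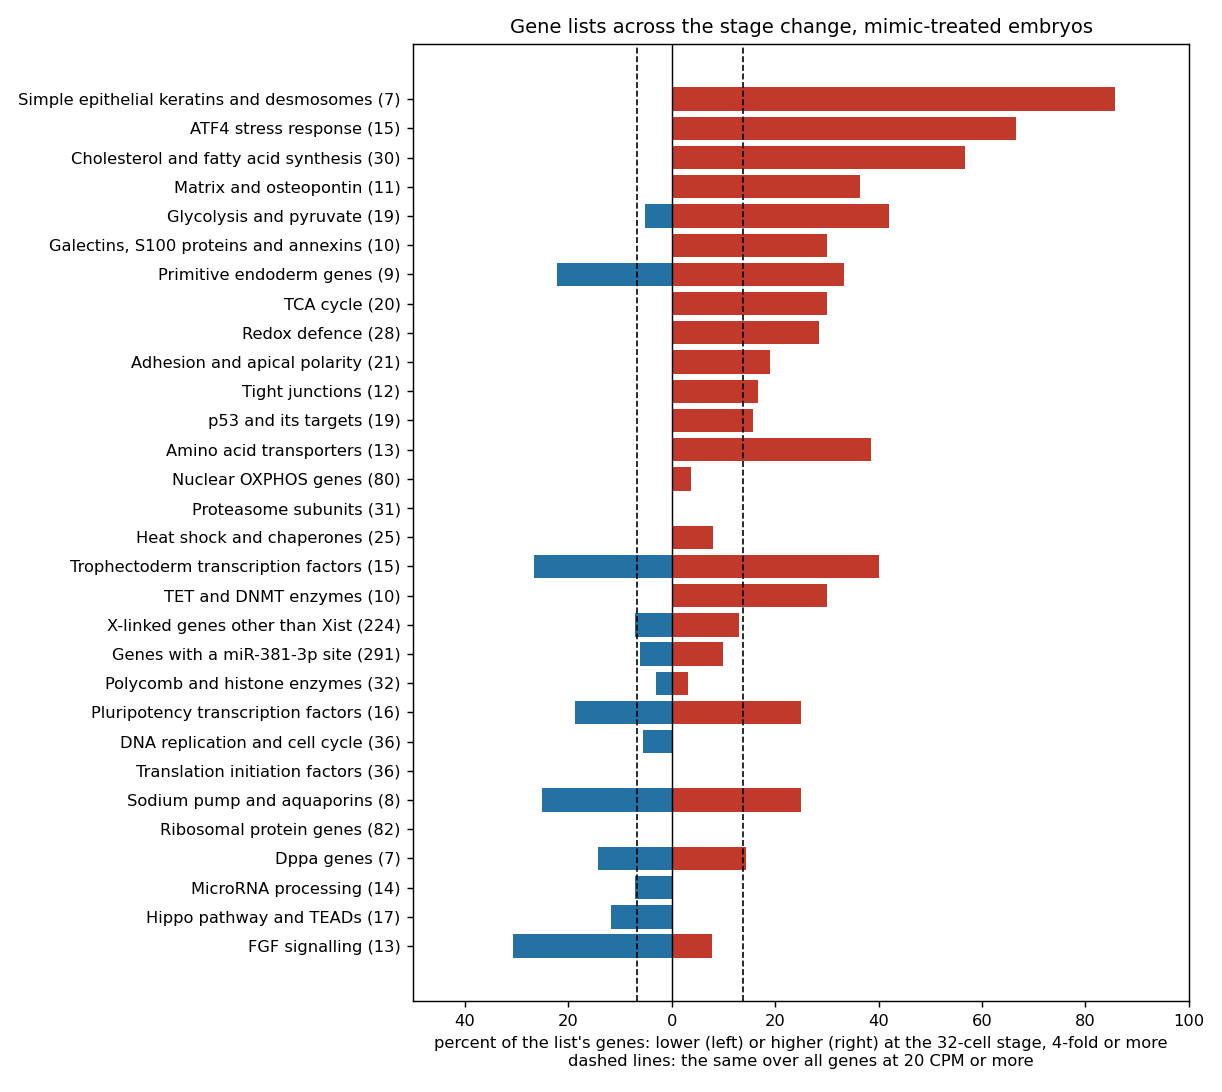
Percent of each gene list that was lower (left bars) or higher (right bars) at the 32-cell stage by 4-fold or more, for lists with at least 7 genes at 20 CPM or more (number in brackets), ordered by median change. Dashed lines are the shares over all 7594 genes, 6.78% and 13.7%: keratins, the ATF4 response and cholesterol and fatty acid synthesis reach furthest to the right and FGF signalling furthest to the left.

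Some list counts moved with the choice of 8-cell cells. Without the 3 cells with few genes, 3 trophectoderm factors fell in place of 4, 4 galectin, S100 and annexin genes rose in place of 3, 3 chaperones rose in place of 2, 5 TCA cycle genes rose in place of 6, and below 2 TET and DNMT genes rose in place of 3 with 1 fall in place of 0, and 2 polycomb and histone enzymes fell in place of 1. With only the 11 8-cell cells that had Xist and no Y-linked counts, 5 of p53 and its targets rose in place of 3, 5 galectin, S100 and annexin genes in place of 3 and 4 TCA cycle genes in place of 6, 2 TET and DNMT genes rose and 1 fell, 1 primitive endoderm gene fell in place of 2, and the median of the oocyte transcripts was -4.49 in place of -2.62. In the glycolysis and pyruvate list 9 genes then rose in place of 8 and 0 fell in place of 1, with a median of 1.99. The replication and cell cycle genes below then had 1 rise in place of 0 and a median of -0.52 in place of -0.20.

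Replication and cell cycle genes had a median of -0.20 with all cells (17 changes above and 19 below 0, 0 rises and 2 falls, 5.56% beside 6.78% of all genes, among 36 of 41). The falls were Ccne1, the cyclin of entry into S phase, from 327 CPM (95% interval 320.4 to 333) to 29.1 CPM (27.7 to 30.6), and Ccnd1, from 31.7 to 6.74 CPM, a change that was -1.89 without the 3 cells with few genes. The mitotic cyclin gene Ccnb1 was at 2147 and 816 CPM and the ribonucleotide reductase gene Rrm2 at 894 and 1368 CPM. Of 10 TET and DNMT enzymes and partners that passed, 3 rose (30%, beside 13.7% of all genes) and 0 fell. Tet2, which oxidises methylated cytosine, had 0 to 433 CPM per cell (median 41.5) over the 24 8-cell cells and 46.1 to 1229 (median 337) over the 39 32-cell cells and rose from 61.0 CPM (95% interval 58.3 to 63.8) to 404 CPM (399 to 409), the glycosylase gene Tdg rose from 0 to 35.2 CPM (at least 363-fold), and the co-repressor gene Trim28 was at 796 and 207 CPM, just short of a fall (change -1.94, and -2.01 without the 3 cells with few genes). Polycomb and histone enzymes gave 1 rise (Kmt2a, from 0 to 36.7 CPM, at least 379-fold) and 1 fall (Hdac1, from 509 to 107.7 CPM) among 32, 3.12% each beside 13.7% and 6.78%, while the acetyltransferase gene Crebbp was at 478 and 479 CPM. Of 14 genes of microRNA processing that passed, 0 rose and 1 fell (7.14%, beside 6.78% of all genes), and 11 had a change below 0 (median -0.94). Ago4 fell from 52.9 to 11.4 CPM, Dicer1 was at 126 and 42.7 CPM and Ago2, the slicing Argonaute, at 312 and 269.8 CPM.

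The protein synthesis and breakdown machinery shifted in opposite directions by less than 4-fold. Of 82 ribosomal protein genes 75 had a change below 0, with a median of -0.51, and of 36 translation initiation factors 28 did, with a median of -0.43. Of 31 proteasome subunits 26 had a change above 0, with a median of 0.60. None of these 3 lists held a gene past 4-fold. Examples are Rps3 (1415 and 909 CPM), Eif5 (3129.5 and 1669 CPM) and Psmd2 (282 and 1002 CPM), but Rpl4 (2038 and 2344 CPM) and Eif5a (3700.2 and 3746 CPM) were close to level, and Psmc1 was at 648 and 1023 CPM. The median over all genes was 0.20 and depends on the scaling, at 0.04 with TMM factors and -0.01 with DESeq2 size factors. Under those scalings the ribosomal median was -0.64 and -0.69, that of the initiation factors -0.57 and -0.61 and that of the proteasome 0.47 and 0.43.

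X-linked and Y-linked genes were described apart, since the cells of the 2 stages differ in sex. Xist, the RNA that coats the inactive X chromosome, had 0 to 2493 CPM per cell (median 273) over the 24 8-cell cells and 249.9 to 3212 (median 1097) over the 39 32-cell cells, and the pooled change was 0.88. The Y-linked Ddx3y went from 36.6 CPM in 10 cells to 0 and Eif2s3y from 13.5 CPM to 1 count in all, and reads of both may be shared with their X-linked copies Ddx3x and Eif2s3x. Of 224 other X-linked genes that passed (of 1082), 29 (12.9%) rose and 16 (7.14%) fell, against 13.7% and 6.78% of all genes, and the median was 0.08, or -0.07 with TMM factors. With only the 11 8-cell cells that had Xist and no Y-linked counts, 30 rose and 21 fell and the median was -0.09. Pls3, an actin bundler, rose from 1.65 to 187 CPM, and Xpnpep2, an aminopeptidase, fell from 36.8 CPM in 9 cells to 0. Prps1, of nucleotide synthesis, was at 3711 and 1285 CPM, and Sat1, of polyamine breakdown, at 3479 and 2004 CPM. When the 8-cell stage was limited to the 11 cells with Xist and no Y-linked counts, 1106 genes rose and 553 fell.

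Because both stages had received the mimic, genes with a site for its seed were described on their own. An 8-base site, CTTGTATA, pairs with bases 1 to 8 of the miRNA, and it was present in the longest annotated 3' UTR of 654 of 21020 genes (GENCODE M21, mm10, sense strand only). Of 648 such genes with counts listed, 291 passed, 29 (9.97%) rose and 18 (6.19%) fell, against 13.7% and 6.78% of all genes. Their median change was -0.05, against 0.20 over all genes. The 7-base site CTTGTAT, which every 8-base site contains, was present in 2361 of the 21020 genes. Of these 1038 passed, 122 (11.8%) rose, 73 (7.03%) fell and the median was 0.04. The 30 bases around the site are shown for 5 genes described here, with the site in capitals and the strand of the gene.

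Id2 (chr12:25094045-25094074, minus strand): attagagttttCTTGTATAgtggcagaaat
Tet2 (chr3:133464736-133464765, minus strand): ctcgtagtttgCTTGTATAtgtactgataa
Nmrk1 (chr19:18651676-18651705, plus strand): acaaaatgaacCTTGTATActacacagaat
Slc5a6 (chr5:31036235-31036264, minus strand): atgtatatctaCTTGTATAgagggggacag
Ccnb1 (chr13:100779133-100779162, minus strand): aagggtgtattCTTGTATAtcctgtataga

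Genes that carry a site went both ways. Id2 and Tet2 rose as given above, and Nmrk1, a kinase of NAD synthesis, rose from no 8-cell count to 51.5 CPM in 24 of 39 cells (at least 530.4-fold). Slc5a6, a vitamin transporter, fell from 1945 CPM (95% interval 1929.9 to 1961) to 361 CPM (356 to 366) with 0 to 3724 CPM per cell (median 1813) over the 24 8-cell cells and 0 to 1008 (median 329) over the 39 32-cell cells, and Ccnb1 was lower by 1.40 on the log2 scale. Tead1 has a 7-base site only and Cdx2 has neither kind in its annotated 3' UTR. A site is a match of letters and not a measured contact.

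The same stage comparison in embryos given the scrambled control shares no cell with the one above. There 7469 genes passed, 996 (13.3%) rose and 546 (7.31%) fell, the cells did not overlap for 34 higher (0.455%) and 43 lower genes (0.576%), and the median absolute change was 1.001, beside 0.95 in the treated embryos. Of the genes that rose in treated embryos 52.1% also rose in controls (543 genes, 54.5% of the control rises), and 55.3% of the falls were shared (285 genes, 52.2% of the control falls). Across the 6982 genes that passed in both, the changes had a Pearson r of 0.84 and a Spearman rho of 0.83, given as a description across genes, which are not independent. Opposite calls past 4-fold were made for 5 genes. Of these, 4 are named here after their values were seen. Tmem63a (2.03 with the mimic and -2.24 in controls) and Zfp874a (2.09 and -2.00) rose in treated and fell in control embryos, and Mical1 (-3.73 and 4.75) and Ddx3y (-5.23 and 2.71) the reverse. Tmem63a and Mical1 had counts in 15 of 39 cells or fewer at the 32-cell stage of either set, and Zfp874a in 25 treated and 14 control cells. The changes differed by 2 or more for 328 genes, in nearly equal numbers in each direction. Whether these differences exceed those between embryos was not tested.

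**Figure D5:**
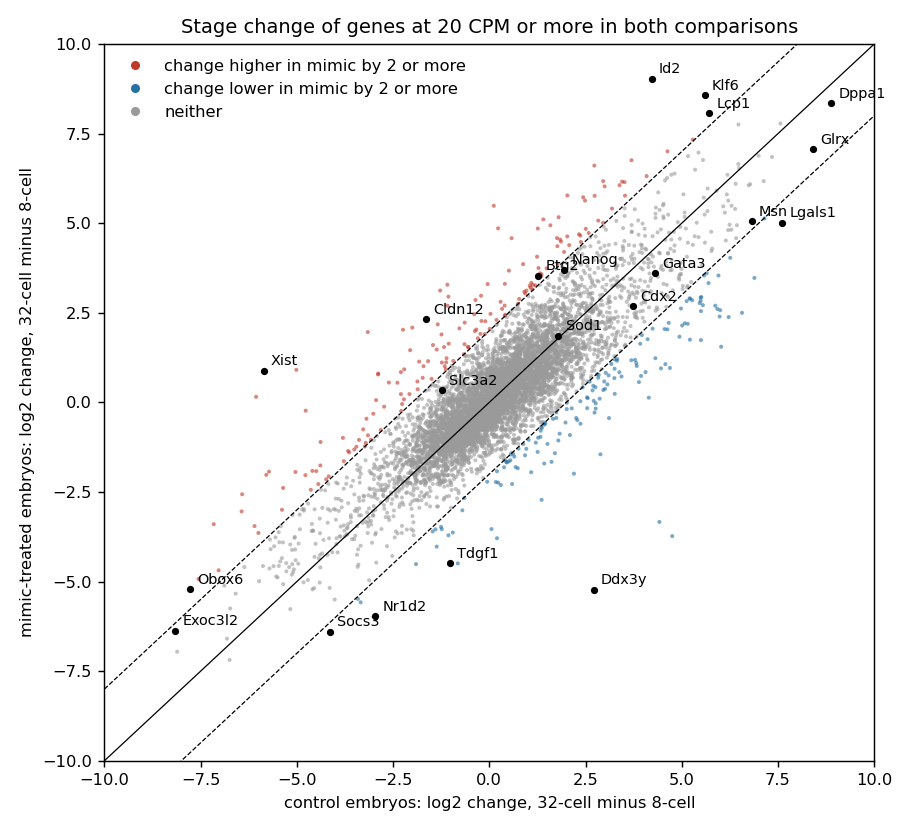
Stage change (log2, 32-cell minus 8-cell) of the 6982 genes at 20 CPM or more in both comparisons, in control embryos (horizontal axis) and mimic-treated embryos (vertical axis). The solid line marks equal changes and the dashed lines a difference of 2 on the log2 scale: most genes lie between them, with Xist above and Ddx3y below them.

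Genes of the sex chromosomes were among those whose changes differed most between the 2 comparisons. In controls, whose 39 32-cell cells all had more Y-linked than Xist counts, Xist was at 380.4 and 5.55 CPM (change -5.86, beside 0.88 with the mimic) and Ddx3y at 50.1 and 333 CPM (change 2.71, beside -5.23), and Eif2s3y changed by 1.40 beside -3.83. Because every treated 32-cell cell had Xist and every control 32-cell cell had Y-linked counts, sex and treatment cannot be told apart at that stage, for these genes or for any other difference between treated and control embryos given here. Other genes with a higher change in treated embryos were Gpx3 (6.004 beside -0.40), the uncharacterised E330020D12Rik (6.27 beside 0.70), the meiotic gene Hormad1 (0.91 beside -5.01) and Sec1, a fucosyltransferase (0.16 beside -6.06). Neither of the latter fell in treated embryos, with Hormad1 at 26.04 and 49.8 CPM and Sec1 at 20.2 and 22.6 CPM, and both fell in controls, with pooled levels of 31.8 and 0.0176 CPM and 65.7 and 0 CPM. Lower changes were found for Otx2, a homeobox gene (-0.30 beside 4.58), which was at 23.6 CPM in 32-cell controls and under 1 CPM in the 3 other groups, for Rgcc, a cell cycle regulator (-3.18 beside 2.06), and for Gm35315. Otx2 and Rgcc were under 20 CPM at both stages of treated embryos, with Rgcc at 14.7 and 0.732 CPM, so neither counts as a rise or a fall there. The value for Gm35315 rests on a single 8-cell cell at 1061 CPM, since 90.5% of its counts were in the 3 cells with few genes, and without them its change was -1.34.

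Most lineage genes went the same way in both sets of embryos, with sizes that differed. The changes of Cdx2 (2.68 beside 3.73), Gata3 (3.60 beside 4.31), Krt8 (3.93 beside 4.59), Krt18 (3.69 beside 4.70) and Upp1, a uridine phosphorylase (2.08 beside 3.502), were smaller in treated embryos (for Upp1 1.91 and for Cdx2 3.29 without the 3 cells with few genes), as were those of Tet2 (2.71 beside 3.64) and of the imprinted RNA Meg3 (2.66 beside 3.29), which was at 20 CPM or more in controls only and had 561 of its 797 treated 32-cell counts in 2 cells of the run of 9. Nanog (3.70 beside 1.95) and Id2 (9.03 beside 4.22) changed by more, the latter by an amount that depends on the added pseudocount, and Eomes was at 3.03 beside 2.32, with the low level in the run of 12 cells given above. Spp1 (6.85 beside 7.34), Dppa1 (8.34 beside 8.88), Sox2 (4.16 beside 4.43), Tead4 (-2.89 beside -3.002) and Pou5f1 (-0.05 beside -0.19) had changes close to those in controls. Tead1 was -0.91 beside 0.48, Tdgf1 -4.48 beside -1.02 and Cldn12 2.33 beside -1.64, so that the claudin rose in one set and was lower in the other. The residual Obox6 at the 32-cell stage was 44.1 CPM with the mimic and 7.77 CPM in controls. At the same stage Krt18 was at 1375 CPM with the mimic and 1262 CPM in controls, and Gata3 at 1350 and 1536 CPM.

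Lists differed in the same descriptive sense. The ATF4 response rose in 10 of 15 genes with the mimic and 4 of 12 in controls, beside 13.7% and 13.3% of all genes, with medians of 2.64 and 1.07. Its level differed between the runs: without the run of 18 cells the treated median was 2.03, and Trib3, a pseudokinase of this response named after its values were seen, was at 217, 49.6 and 53.3 CPM in the runs of 18, 12 and 9 cells. Within the list Pycr1 changed by 5.78 beside 1.02 and Psat1 by 0.22 beside -1.32, whereas Herpud1 was alike (5.91 beside 5.90). Cholesterol and fatty acid synthesis rose in 17 of 30 and 12 of 28 genes, beside the same shares of all genes (medians 2.21 and 1.74), and in 13 of 30 treated genes (median 1.85) with only the 8-cell cells that had Xist and no Y-linked counts. Smaller medians in treated embryos were seen for primitive endoderm genes (1.48 and 2.80), keratins and desmosomes (3.69 and 4.70) and galectins, S100 proteins and annexins (1.52 and 2.47). A smaller change was not always a lower 32-cell level. Keratin and desmosome genes summed to 229.7 and 3060.5 CPM at the 8-cell and 32-cell stage with the mimic. In controls they summed to 129.5 and 2958.9 CPM. At the 32-cell stage, treated and control sums were 1903 and 2061 CPM for primitive endoderm genes. They were 1422 and 2020 CPM for galectins, S100 proteins and annexins. Genes with an 8-base site had medians of -0.05 and 0.03, and X-linked genes of 0.08 and -0.30, the latter in groups of different sex at the 32-cell stage. The counts and medians run over the genes that passed in each comparison, which need not be the same genes (9 and 12 for primitive endoderm, 7 and 7 for keratins and desmosomes, 10 and 11 for galectins, S100 proteins and annexins in treated and control embryos).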

How the data were processed

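Single blastomeres were sequenced with Smart-seq2 on an Illumina NextSeq 550, without molecular identifiers, so counting errors treat reads as independent molecules. The authors deposited 1 table of expected counts per gene, which per the submitters' processing notes came from FastQC, STAR 2.5.1b and RSEM 1.3.0 on mm10 (GRCm38). It holds 32245 genes and 132 cells, and 100% of its values are whole. Whether counting used the strand is not given in the sources used here. The study kept cells with at least 3000 genes and under 10% mitochondrial counts, which all 132 cells met. No 2 cells held the same counts.

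For the comparisons the 13 mitochondrial genes were left out, counts were summed over the cells of a stage and divided by their total (pooled CPM), and the same was done per cell. Genes at 20 CPM or more in either stage were compared on the log2(CPM + 1) scale. Intervals are exact Poisson 95% intervals, bounds against 0 use a floor of 3 counts over the group, and no test was run because each stage is 1 pooled sample. A gene was called at an absolute log2 change of 2 or more. Genes were named by rule: the 10 largest changes in each direction among genes counted in more than 33% of the cells of the higher stage, up to 2 changed and 2 high members of each list, 18 genes of lineage or stage, the 5 genes in each direction whose change differed most from the control, and the 10 widest gaps between cells in each direction. The members and lists were chosen with earlier results of these data known. Sites for the miRNA were searched in the longest 3' UTR per gene (GENCODE M21), which 20741 of the 32245 symbols have, and 31359 symbols matched coordinates. Sums, intervals and calls were tested on simulated counts. Alternatives were TMM factors (edgeR 4.0.16), size factors (DESeq2 1.42.0), thinning to 500000 counts per cell, other filters and pseudocounts, means over cells, and leaving out cells, runs of title numbers or sex-linked genes. Python 3.11.15, numpy 2.4.6, pandas 2.3.3 and scipy 1.17.1 were used. Some single genes are not reported here.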

Additional observations from a re-analysis of the deposited data

How the results depend on the processing

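No paired analysis was possible because the labels carry no replicate number that ties cells of the 2 stages and no result comes from a test. Of the 1558 genes past 4-fold (1043 higher, 515 lower), a limit of 5 CPM gave 2682 (1751 and 931), a limit of 50 CPM 887 (584 and 303) and no limit 3093 (1999 and 1094), while a 2-fold limit gave 3640 (2213 and 1427) and an 8-fold limit 714 (494 and 220). Averaging log2(CPM + 1) over cells in place of pooling gave 2274, with 1583 higher. TMM factors gave 1500 (919 and 581), size factors 1496 (881 and 615), thinning 1533 (1045 and 488), and leaving out the 3 8-cell cells with few genes, an alternative chosen after seeing the data, 1506 (1008 and 498). Leaving out each cell in turn gave 1512 to 1584 genes (1012 to 1073 higher, 500 to 528 lower). The 36 genes without overlap (17 higher, 19 lower) became 36 to 43 (17 to 22 and 19 to 24) when 1 cell was left out, 74 (32 and 42) with only the 11 8-cell cells with Xist and no Y-linked counts, 51 (30 higher) without the run of 18 cells and 55 (31 higher) without the run of 12 cells. A smaller number of cells can by itself raise this count, and how far it did so here was not tested. Of the named genes, 99 stayed past 4-fold whichever cell was left out, and 0 of those past it changed sign under an alternative. The number of lists with a median of 1 or more in size was 17, and 15 to 19 when 1 cell was left out. The median of the subcortical maternal complex went from -2.78 to 3.27 with the 50 CPM limit, which leaves Khdc3 alone. Genes past 4-fold in both treated and control embryos numbered 828, and 831 to 850 under its alternatives. Depth of 642262 to 2543841 counts per cell limits what is seen in single cells near 1 CPM, and 1 pooled sample per stage limits every comparison.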
